A study of Mus musculus with 11 samples.

Results

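The windows described here are 17 of the 1181 distinct 500-bp windows in the 4 deposited lists: the 11 whose nearest gene is given as Col19a1 and the 6 whose nearest gene is given as Gad2. They were chosen by that gene name after results of these lists were known, and they form 2 unbroken runs. The Col19a1 run covers chromosome 1 from 24618001 to 24623500 and the Gad2 run covers chromosome 2 from 22443001 to 22446000 (mm9). The 16 windows of the mitochondrial chromosome in the same lists serve as the comparison.

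The lists come from MeDIP-seq, in which an antibody to methylated cytosine captures sonicated DNA (fragments of about 300 bp) for sequencing. It was applied to the suprachiasmatic nucleus (SCN), the hypothalamic seat of the circadian clock. Wild type C57BL/6Cr1 mice, 6 weeks old at the start and labelled postnatal day 90, were held in alternating light and dark for 6 weeks, with a cycle length of 22, 24 or 26 h, followed by constant darkness for 3 days. All groups share genotype, strain, age and the sampling time of circadian time 4. A single slice of about 250 µm from the middle of the SCN was cut into a ventral and a dorsal piece. The labels give 2 samples in each of 5 groups and 1 in the dorsal 24 h group, yet each group appears in the lists as 1 column, so neither the spread between mice nor any test between groups could be had. Whether a sample is 1 mouse or a pool is not stated in the labels. Genomic DNA carries no expression markers, so the dissection could not be checked. Levels are in RPKM, the reads of a window scaled to its length and to all reads of its column. Because 1 read is worth a fixed RPKM step in each column, reads were recovered from the levels: the columns hold 4580000 to 9430000 reads, and the 24 h column is the shallowest in both parts. Ratios carry exact 95% binomial (Clopper-Pearson) intervals, which cover counting error only. A fragment of about 300 bp can reach into 2 neighbouring windows. If it was counted in both, the interval of a ratio summed over a run is too narrow even for counting error. Such overlap was not corrected for.

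Mitochondria carry a circular chromosome of their own, in many copies per cell, that encodes subunits of the respiratory chain together with the ribosomal and transfer RNAs needed to make them. In the course of evolution, pieces of this chromosome have been copied into the nuclear chromosomes, where most lie as inactive insertions. Where such a copy is recent, its sequence is nearly that of the organelle, and a short read from one may be placed on the other. Col19a1 encodes a collagen of the FACIT class, which associates with fibrils in the extracellular matrix. Gad2 encodes the smaller isoform of glutamate decarboxylase, which makes GABA, the main transmitter of SCN neurons.

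Both runs are nuclear copies of mitochondrial DNA rather than parts of the genes they are named after. The Col19a1 windows lay 24.0 to 29.0 kb upstream of the start site that the authors' deposited table gives, and outside the annotated Col19a1 gene (24268729 to 24594311, minus strand; GENCODE M1). The Gad2 windows lay 32.1 to 34.6 kb upstream of the Gad2 start site, inside the gene Myo3a (22149130 to 22473772, plus strand), a class III myosin, with no Myo3a exon among them. The annotation places the predicted genes Gm10222 and Gm10925 inside the Col19a1 run and the pseudogenes Gm13341, Gm13340 and Gm13339 across the Gad2 run, all on the minus strand.

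The ends of the copies show where nuclear sequence stops and mitochondrial sequence begins. In the 4 lines that follow, from the mm9 plus strand, capitals mark the part that aligns to the mitochondrial chromosome. The positions are chr1:24618334-24618413, chr1:24622988-24623067, chr2:22442768-22442847 and chr2:22446015-22446094.
Col19a1 block start: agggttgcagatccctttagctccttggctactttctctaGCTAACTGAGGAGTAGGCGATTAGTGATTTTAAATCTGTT
Col19a1 block end: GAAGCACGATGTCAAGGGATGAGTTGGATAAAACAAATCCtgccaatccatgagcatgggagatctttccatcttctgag
Gad2 block start: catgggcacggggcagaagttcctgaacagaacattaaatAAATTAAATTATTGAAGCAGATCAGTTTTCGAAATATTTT
Gad2 block end: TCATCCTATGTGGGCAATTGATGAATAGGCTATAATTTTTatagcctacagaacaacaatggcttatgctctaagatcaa

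The Col19a1 copy runs over 4654 bp of chromosome 1 (24618374 to 24623027, mm9) and matches positions 6390 to 11042 of the mitochondrial chromosome in reverse orientation. It represents 28.5% of that chromosome, which is 16299 bp long in this build. Identity was 99.94%, with 2 substitutions and 1 extra base. The copy holds mt-Co2, mt-Atp8, mt-Atp6, mt-Co3, mt-Nd3 and mt-Nd4l whole, which encode subunits of cytochrome oxidase, ATP synthase and complex I. It also spans 5 transfer RNA genes from end to end, of which mt-Tr holds the extra base, and includes the end of mt-Co1 and the start of mt-Nd4. All 11 windows that the copy touches were listed.

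The Gad2 copy runs over 3247 bp of chromosome 2 (22442808 to 22446054, mm9) and matches positions 4441 to 7699 of the mitochondrial chromosome, again in reverse orientation. Identity was 97.36%, with 72 substitutions, of which 63 were transitions and 9 transversions, and 14 bases extra or missing. It spans mt-Co1, mt-Co2 and 7 transfer RNA genes from end to end, and part of mt-Nd2. Within mt-Co2, however, 12 bases are missing from position 7446 on, and mt-Tc holds an extra base. Of the 8 windows it touches, 6 were listed.

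The copies overlap over 1310 mitochondrial bases (6390 to 7699), so the same organelle sequence stands in 3 places of the genome. Within this overlap the Col19a1 copy had 1 substitution and the Gad2 copy 29. A 120-base stretch of the overlap, chosen for its substitutions in the Gad2 copy and lying before the missing bases that begin at mitochondrial position 7446, is shown on the mitochondrial plus strand, with capitals at the 6 bases where it differs. It corresponds to chrM:6501-6620, chr1:24622797-24622916 and chr2:22443875-22443994, the nuclear copies being read on the minus strand, and lies within mt-Co1.
mitochondrial stretch: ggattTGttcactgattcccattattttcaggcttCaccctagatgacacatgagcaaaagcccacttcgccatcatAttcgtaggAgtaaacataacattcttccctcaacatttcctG
Col19a1 copy of the stretch: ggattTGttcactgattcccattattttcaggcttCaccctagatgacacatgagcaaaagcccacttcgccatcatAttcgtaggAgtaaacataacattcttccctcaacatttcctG
Gad2 copy of the stretch: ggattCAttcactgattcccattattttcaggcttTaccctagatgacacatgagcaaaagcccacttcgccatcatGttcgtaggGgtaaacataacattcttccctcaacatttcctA

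The Col19a1 line equals the mitochondrial line, whereas the Gad2 line differs from it by T6506C, G6507A, C6536T, A6578G, A6587G and G6620A. In these tokens the mitochondrial base comes first, the position is counted from the first base of the mitochondrial chromosome, and the base of the nuclear copy on the same strand comes last. The Col19a1 copy differs from the organelle at only 3 places in mm9: A6393T near its edge, T9461C, and 1 extra base beside position 9825. The inner substitution is shown in its surroundings (chrM:9441-9481 and chr1:24619936-24619976, minus strand), with the differing base in capitals.
mitochondrial, inner substitution: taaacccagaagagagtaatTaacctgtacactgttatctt
Col19a1 copy, inner substitution: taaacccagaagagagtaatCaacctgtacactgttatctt

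These differences set how far a read can be assigned. Of all 100-base words of the Gad2 windows, 15.8% also occur in the mitochondrial chromosome and 79.6% occur once in the genome. Of those of the Col19a1 windows, 79.4% occur in the mitochondrial chromosome and 6.76% once in the genome. In 8 Col19a1 windows every word of 31, 50 or 100 bases was also mitochondrial, and in the window at 24619501, which holds T9461C and the extra base, 66.8% of 100-base words were. How reads with several equal matches were placed is not given in the sources used here, nor is the read length. Reads that lie wholly within those 8 windows therefore cannot be told apart from reads of the organelle by sequence. This does not cover reads that cross a window edge and reach a differing base or sequence outside the copy.

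By alignment, 15 of the 17 windows matched the mitochondrial chromosome at 90% identity or more over at least 80% of their length, against 2 of 1148 other nuclear windows in the lists (0.174%). The exceptions were the first and last Col19a1 windows. The window at 24618001 held 127 aligned bases, and the window at 24623001 held 27. Their remaining sequence was mostly repeated elsewhere in the nuclear genome: 57.4% and 94.5% of their 100-base words had more than 1 nuclear place. Among 106 nuclear matches to the mitochondrial chromosome found in mm9, the Col19a1 and Gad2 copies were the highest scoring. Of the 40 windows touched by the other 9 matches of at least 1000 aligned columns, 1 was listed. It lay in a match on chromosome 4 with 93.03% identity, and the rest of these long matches had 67.29% to 83.30%. In all, 7 matches beyond the 2 copies had a listed window. Apart from that on chromosome 4 they were shorter, with 95.18% to 100% identity. No match in that range lacked a listed window, a range read off after the listing was seen.

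Each of the 17 windows had its lower level at 24 h wherever it was listed. They stood in the ventral list of 24 h against 26 h and in the dorsal list of 24 h against 22 h, and 2 Col19a1 windows were also in the dorsal list of 24 h against 26 h. None was in the ventral list of 24 h against 22 h. The share of all listed windows with lower RPKM at 24 h was 73.3% in the ventral 26 h list, 93.1% in the dorsal 22 h list, 78.5% in the dorsal 26 h list and 75.7% in the ventral 22 h list. The authors listed these windows for these very contrasts, so the direction is part of how they were found and is given as a description, with no test. The same holds for the counts given below of windows whose interval lies wholly below 1. No share over all listed windows was computed for those counts.

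In the ventral SCN the Col19a1 windows had 13.8 to 110.1 RPKM at 24 h (median 52.8) and 30.5 to 150.3 at 26 h (median 117). Summed over the run, 1731 reads at 24 h stood against 5469 at 26 h, which scaled to depth is 1.75-fold lower at 24 h (95% interval 1.66 to 1.85). The ranges of the columns overlapped, but within each window 24 h was the lower. The interval of the ratio lay wholly below 1 in 10 of 11 windows, the exception being the first, at 24618001, which held 24.5 RPKM at 24 h against 30.5 at 26 h. In bulk tissue, less captured DNA per cell and fewer cells contributing it cannot be told apart.

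The Gad2 windows had 14.9 to 46.3 RPKM at ventral 24 h (median 27.7) and 38.0 to 78.4 at 26 h (median 51.7). In sum, 474 against 1518 reads gave a level 1.78-fold lower at 24 h (1.60 to 1.97), and the interval lay wholly below 1 in 6 of 6 windows. The ratio of the Gad2 run was thus close to that of the Col19a1 run, while its levels were lower in both columns. The difference between the runs was not tested.

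**Figure D1:**
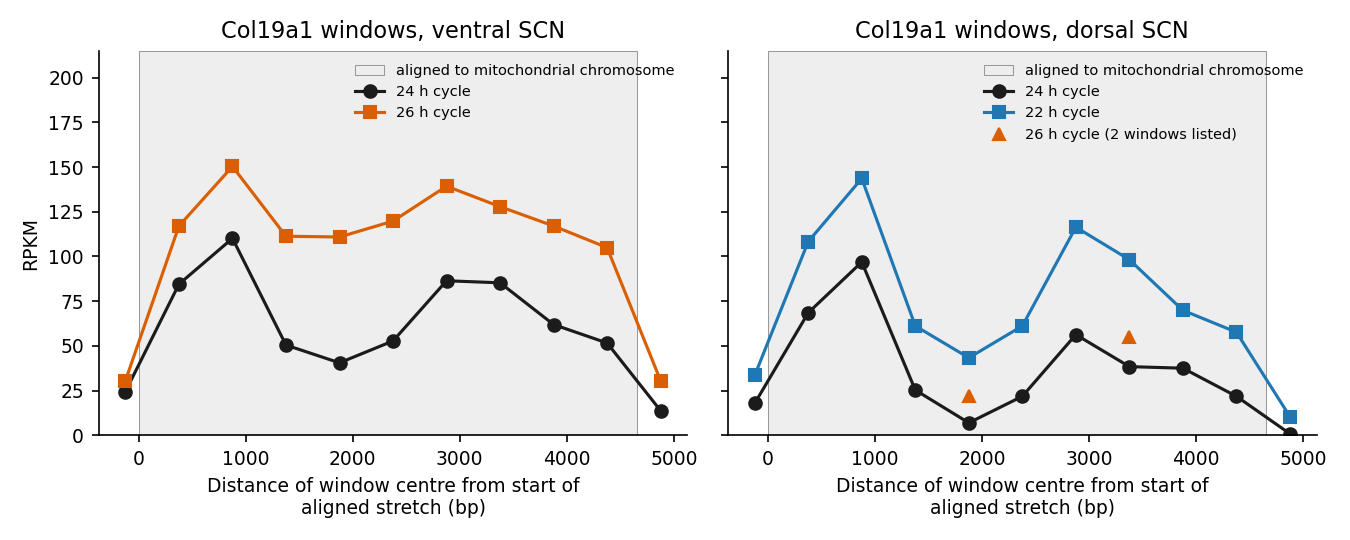
RPKM of the 11 Col19a1 windows against the distance of the window centre from the start of the stretch aligned to the mitochondrial chromosome (shaded), in the ventral (left) and dorsal (right) SCN; each point is 1 deposited column. The profile has its high point in the third window and a dip in the fifth, which is shallow at ventral 26 h. No window lies below the last in any column given for all 11 windows, and 24 h lies below the other cycle at every window.

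Along the Col19a1 run the level followed a similar course in all columns. The highest window was that at 24619001, whose sequence comes from mt-Nd4l and the start of mt-Nd4, with 110.1 RPKM at ventral 24 h, 150.3 at ventral 26 h, 96.9 at dorsal 24 h and 143.6 at dorsal 22 h. A second rise stood at 24621001, in mt-Atp8 and mt-Atp6, with 86.4, 139.3, 56.3 and 116.4 RPKM in that order. Between them lay the window at 24620001, in mt-Co3 and 1 transfer RNA gene, with 40.5, 110.9, 6.98 and 43.3 RPKM. The dip was shallow at ventral 26 h, where the window held 110.9 RPKM beside neighbours at 111.3 and 119.8, and deepest at dorsal 24 h, where it held 6.98 RPKM (16 reads) beside 25.3 and 21.8.

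Over the 11 windows, Pearson's r between columns was 0.87 for ventral 24 h with ventral 26 h, 0.95 for dorsal 24 h with dorsal 22 h and 0.99 for ventral 24 h with dorsal 22 h. Spearman's rho was 0.94, 0.97 and 0.97. The lowest r was 0.67, between ventral 26 h and dorsal 24 h. These coefficients describe 11 neighbouring windows that share sequence and, within a column, libraries, and they carry no p-value.

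The first 240 bases of the highest window and of the dip window are printed with their CpGs, a main target of methylation, in capitals (mm9 plus strand, chr1:24619001-24619240 and chr1:24620001-24620240).
Col19a1 window 24619001: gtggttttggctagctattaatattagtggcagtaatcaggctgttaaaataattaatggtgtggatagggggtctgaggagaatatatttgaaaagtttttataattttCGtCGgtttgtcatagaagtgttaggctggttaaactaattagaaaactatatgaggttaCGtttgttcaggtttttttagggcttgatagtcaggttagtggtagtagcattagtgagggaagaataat
Col19a1 window 24620001: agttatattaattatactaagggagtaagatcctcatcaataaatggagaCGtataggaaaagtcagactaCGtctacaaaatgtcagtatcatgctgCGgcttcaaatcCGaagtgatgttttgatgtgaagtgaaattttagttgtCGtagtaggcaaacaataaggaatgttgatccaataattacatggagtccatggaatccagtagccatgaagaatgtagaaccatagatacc

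The printed part of the highest window holds 3 CpGs and that of the dip window 5, and the whole windows hold 9 and 7. Across the 11 Col19a1 windows the number of CpGs ranged from 3 to 10 and went with the level at r = 0.66 (rho 0.60) at ventral 24 h and r = 0.50 (rho 0.46) at dorsal 24 h. These coefficients include the first and last windows, which lie mostly outside the copy. Those windows hold 5 and 3 CpGs and had the lowest ventral 24 h levels, 24.5 and 13.8 RPKM. Coefficients without them were not computed. Over the 6 Gad2 windows, with 3 to 12 CpGs, r was -0.10 (rho 0.09) and -0.62 (rho -0.17). The Gad2 window richest in CpGs, at 22443001 with 12, had 26.4 RPKM at ventral 24 h, and the poorest, at 22445501 with 3, had 41.7. Among the 16 mitochondrial windows r was -0.22 at ventral 24 h, and the window at 11501, which holds 0 CpGs, had 150.3 RPKM at 24 h and 223.9 at 26 h. An unenriched input library was not analysed here, so captured DNA cannot be told apart from DNA present in abundance.

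**Figure D2:**
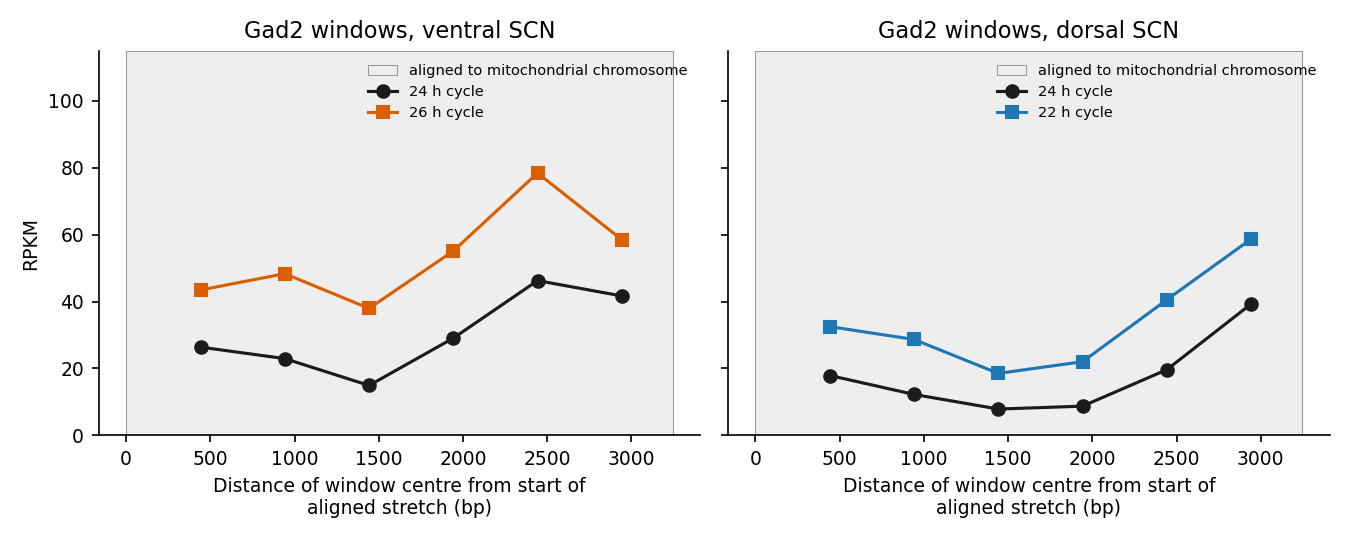
RPKM of the 6 Gad2 windows against the distance of the window centre from the start of the aligned stretch (shaded), in the ventral (left) and dorsal (right) SCN; each point is 1 deposited column. The third window is the lowest in every column, and 24 h lies below the other cycle at every window.

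The Gad2 run had its low point at 22444001, within mt-Co1, in all 4 columns, with 14.9 RPKM at ventral 24 h, 38.0 at ventral 26 h, 7.86 at dorsal 24 h and 18.5 at dorsal 22 h. The high point differed between the parts of the SCN. In the ventral part it was the window at 22445001, with 46.3 RPKM at 24 h against 78.4 at 26 h. That window touches 5 transfer RNA genes, of which mt-Tw only in part, and the start of mt-Co1. In the dorsal part it was the last window, at 22445501 in mt-Nd2, with 39.3 RPKM at 24 h and 58.7 at 22 h, while the window at 22445001 had 19.6 and 40.5. Dorsal 24 h and dorsal 22 h ran together at r = 0.98 (rho 1.0), ventral 24 h and ventral 26 h at r = 0.92 (rho 0.94), and ventral 26 h with dorsal 24 h at r = 0.39 (rho 0.71), each over 6 windows.

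In the dorsal SCN the Col19a1 windows had 0.87 to 96.9 RPKM at 24 h (median 25.3) and 10.5 to 143.6 at 22 h (median 61.2). The run was 2.05-fold lower at 24 h (1.90 to 2.22), from 899 against 2300 reads, and the interval lay wholly below 1 in 11 of 11 windows. The Gad2 windows had 7.86 to 39.3 RPKM at 24 h (median 15.1) and 18.5 to 58.7 at 22 h (median 30.6), and the run was 1.90-fold lower at 24 h (1.63 to 2.22), with 6 of 6 intervals below 1. As in the ventral comparison, these interval counts describe windows listed for this very contrast. The dorsal 24 h group has 1 sample in the labels.

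**Figure D3:**
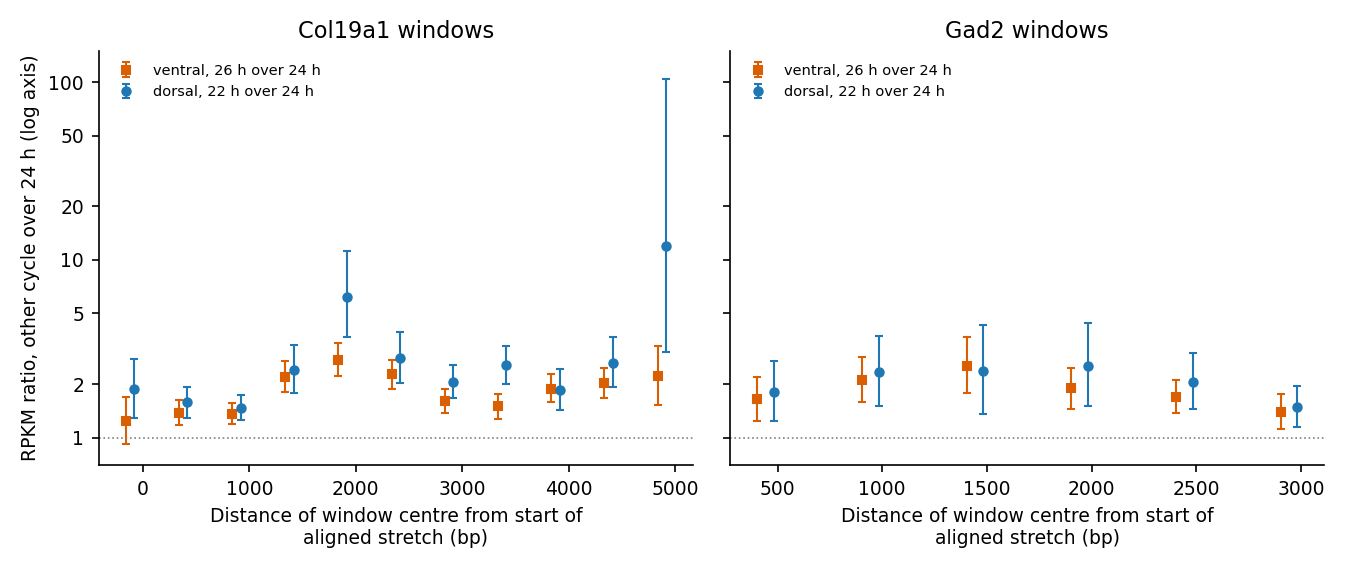
Ratio of RPKM in the other cycle over 24 h for each Col19a1 (left) and Gad2 (right) window, on a log axis, against distance from the start of the aligned stretch; squares are ventral 26 h over 24 h, circles are dorsal 22 h over 24 h, and bars are exact 95% intervals for counting error. The ratios of both comparisons are largest near the middle of each run, apart from the last Col19a1 window in the dorsal SCN, which rests on 2 reads at 24 h.

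The size of the difference varied along each run. In the ventral comparison it ran from 1.25-fold at the first Col19a1 window to 2.74-fold (2.22 to 3.40) at the dip window 24620001, and at the highest window it was 1.36-fold (1.19 to 1.57). In the dorsal comparison it ran from 1.48-fold (1.26 to 1.75) at the highest window to 6.21-fold (3.67 to 11.2) at the dip window and 12-fold (3.05 to 104) at the last window, where 0.87 RPKM (2 reads) stood against 10.5. In the Gad2 run the difference was smallest at the last window, with 1.40-fold in the ventral and 1.49-fold in the dorsal comparison. It was largest at 22444001 in the ventral part (2.54-fold) and at 22444501 in the dorsal part (2.52-fold). The dorsal fold and the level at dorsal 22 h had r = -0.65 (rho -0.70) over the Col19a1 windows and r = -0.89 (rho -0.89) over the Gad2 windows. For the ventral fold and the level at 26 h the values were r = -0.07 (rho -0.27) and r = -0.56 (rho -0.54).

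The medians of the authors' deposited table gave larger differences than the RPKM, although at the window 24619001 in the ventral comparison its log2 fold change of -0.40 was smaller than the 1.36-fold difference in RPKM. The median log2 fold change in the authors' deposited table was -1.28 for Col19a1 and -1.46 for Gad2 in the ventral comparison, and -1.56 and -1.58 in the dorsal comparison. Expressed as a ratio of 24 h to the other cycle, the Gad2 medians are 0.363 and 0.333, where the reads scaled to depth gave 0.563 and 0.526. The direction was the same in every window.

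At 24 h both runs were higher in the ventral than in the dorsal SCN. The Col19a1 run was 1.69-fold higher (1.56 to 1.83) and the Gad2 run 1.72-fold (1.47 to 2.01), and the ventral value was the higher in 11 of 11 and 6 of 6 windows, with the interval wholly above 1 in 9 and 4 of them. The Col19a1 difference was smallest at the highest window, with 110.1 against 96.9 RPKM (1.14-fold, 0.951 to 1.36), and was 5.80-fold (3.41 to 10.5) at the dip window, with 40.5 against 6.98. It was largest, at 15.8-fold (4.06 to 135), in the last window, 24623001, with 13.8 against 0.87 RPKM, the latter from 2 reads. Among the Gad2 windows it ran from 1.06-fold (0.795 to 1.42) at 22445501 to 3.33-fold (2.01 to 5.75) at 22444501. The parts were sequenced to different depths and, with 1 column each, this difference was not tested. The windows were listed as lower at 24 h in the dorsal part, so the dorsal 24 h level is part of how they were found. Other windows were not compared between the parts, so these counts have no share over all windows beside them.

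For 2 Col19a1 windows the dorsal lists give all 3 cycle lengths. The dip window at 24620001 had 43.3 RPKM at 22 h, 6.98 at 24 h and 21.8 at 26 h, and the window at 24621501, in mt-Co2 and mt-Atp8, had 98.2, 38.4 and 55.1. In both, 24 h was the lowest and 22 h the highest. The 26 h level was 0.504 of the 22 h level in the former (0.366 to 0.688) and 0.561 in the latter (0.459 to 0.684). The dorsal comparisons share the 24 h column, so they are not independent of each other. In the ventral SCN a single mitochondrial window, at 12001 in mt-Nd5, had all 3 cycle lengths, with 111.1 RPKM at 22 h, 108.6 at 24 h and 217.1 at 26 h. There the 22 h and 24 h levels lay within counting error (ratio of 24 h to 22 h 0.977, 0.839 to 1.14), although the authors' deposited table gives a log2 fold change of -0.53.

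**Figure D4:**
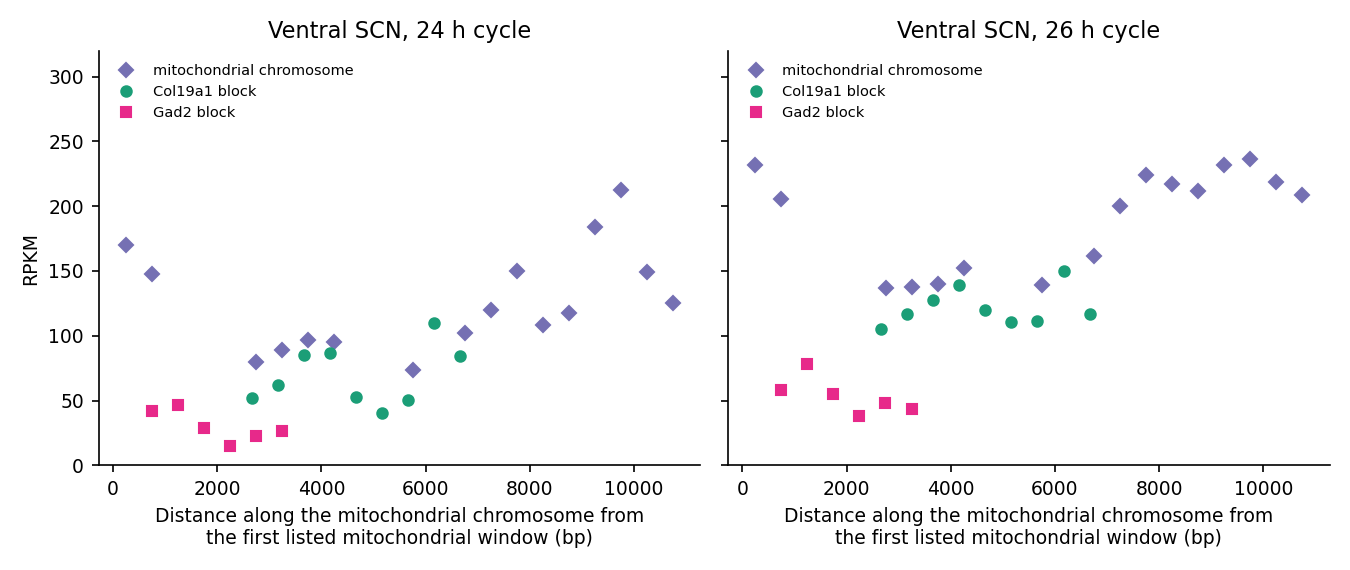
RPKM of listed windows placed along the mitochondrial chromosome by their alignment, as distance from the first listed mitochondrial window, at ventral 24 h (left) and ventral 26 h (right); diamonds are windows of the mitochondrial chromosome, circles the 9 fully aligned windows of the Col19a1 copy and squares the Gad2 copy. The Col19a1 copy lies below the organelle windows it aligns to at most positions, and the Gad2 copy lies well below both.

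The mitochondrial chromosome itself was listed in the ventral comparison with 26 h, with 16 windows between positions 4001 and 15000. These had 73.8 to 212.6 RPKM at 24 h (median 119) and 136.5 to 236.2 at 26 h (median 207), and in sum were 1.51-fold lower at 24 h (1.46 to 1.56). The dorsal lists held none. The 9 windows touched by any aligned base of the listed copy windows were 1.55-fold lower (1.48 to 1.62). The 7 touched by none were 1.48-fold lower (1.41 to 1.54). Of the 9, the window at 4001 was touched by only 6 bases and that at 11001 by 42. Among the listed organelle windows, the lower level at 24 h was also present in those that share no sequence with either copy. All of them were listed for this very contrast, and 73.3% of all windows in that list were lower at 24 h. The direction is therefore a description, and organelle windows outside the lists have no level here.

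Levels of the copies were set against the listed mitochondrial windows they align to, where these covered at least 50% of the aligned bases and at least 80% of the window was aligned. The first Col19a1 window, 24618001, has its 127 aligned bases covered but is mostly other sequence and was left out by the latter limit; it had 0.227 of the organelle level at 24 h and 0.175 at 26 h. For the 6 Col19a1 windows within both limits, the copy had 0.649 to 0.908 of the organelle level at 24 h (median 0.768) and 0.723 to 0.927 at 26 h (median 0.824). For the 3 Gad2 windows it had 0.281 to 0.296 at 24 h (median 0.288) and 0.285 to 0.354 at 26 h (median 0.315). In these windows the Col19a1 copy was nearer to the organelle level than the Gad2 copy, and a link to their substitutions was not tested. Col19a1 windows with less of their sequence covered went both ways. That at 24619001 (17.0% covered) had 1.49 at 24 h and 1.08 at 26 h. That at 24620501 (16.8% covered) had 0.557 and 0.786. Where the organelle was lower at 24 h by 1.72-fold, in the end of mt-Co1, the Col19a1 window at 24622501 was lower by 2.03-fold and the Gad2 window at 22443501 by 2.11-fold. The fold of the copy exceeded that of the aligned organelle windows in 5 of 6 Col19a1 and 3 of 3 Gad2 windows within these limits, while in the first Col19a1 window it was 1.25 against 1.62. Relative to the listed mitochondrial windows, the ratio of 24 h to 26 h became 0.862 for Col19a1 and 0.851 for Gad2. How far reads of the organelle contribute to the levels of the copies was not tested.

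Genes related to the names of the runs were counted in the lists as a description. Of 10 genes of GABA synthesis, transport and breakdown, 1 was the name of any listed window, namely Gad2 itself, and of 9 FACIT collagens, 1 was, namely Col19a1. Of the 2 class III myosins, Myo3a had 1 further window, at 22000001 in the dorsal comparison with 22 h, with 1.75 RPKM at 24 h and 7.34 at 22 h, 443 kb before the Gad2 run. No other listed window lay nearer to the Gad2 run in any list. Around the Col19a1 run the nearest was at 23793001, 825 kb before it, named B3gat2, with 2.29 RPKM at ventral 24 h and 15.2 at 22 h.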

How the data were processed

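BWA, with no version, and mouse build mm9 are given per the submitters' processing notes. The authors deposited 4 lists of 500-bp windows with 1 RPKM column per cycle length. Columns named counts, per the file headers, hold a rescaled score and were not used. The log2 fold change and unadjusted p-value come from edgeR, per the file headers, and compare 1 column with another. The 16 columns of means were not used. How duplicates were combined and how windows were chosen is not given in the sources used here. The ventral 26 h list repeats 3 rows, which were counted once.

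The members and gene lists were chosen with earlier results of these data known, and every member is accounted for. Windows were named in full where they were first, last, highest or lowest of a run, did not align, or were nearest to a run. Reads were recovered from the RPKM step of each column (all values whole within 0.01 RPKM; checked on simulated data). Windows were aligned to the mitochondrial chromosome of mm9 with BLAST 2.17.0 and annotated with GENCODE M1; all 1181 lie on chromosomes of this build, 5 running past a chromosome end. Words of 31, 50 and 100 bases were searched in the whole genome. Alternatives changed scaling, summary, windows and match limits. Work was done in Python 3.11.15 with pysam 0.24.0, scipy 1.17.1, pandas 2.3.3, numba 0.67.0, matplotlib 3.10.9 and numpy 2.4.6. No batch is labelled.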

Additional observations from a re-analysis of the deposited data

How the results depend on the processing

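All ratios of 24 h to the other cycle stayed below 1 under each alternative run. In the order Col19a1 and Gad2 ventral, Col19a1 and Gad2 dorsal, and mitochondrial ventral, the ratios were 0.571, 0.563, 0.488, 0.526 and 0.662. Reads without depth scaling gave 0.317, 0.312, 0.391, 0.421 and 0.367, and the authors' median log2 fold change gave 0.412, 0.363, 0.338, 0.333 and 0.636. The median of the window ratios moved Col19a1 to 0.529 (ventral) and 0.414 (dorsal) and the mitochondrial windows to 0.638. Leaving out the first and last window moved Gad2 dorsal to 0.441. Relative to the listed mitochondrial windows, the ventral ratios were 0.862 and 0.851, and the dorsal list holds no mitochondrial window to scale by. With identity of at least 99%, 9 windows in place of 15 matched the mitochondrial chromosome. Against all listed mitochondrial windows, the level of the copies was 0.579 at 24 h and 0.613 at 26 h for Col19a1, and 0.209 and 0.253 for Gad2. The share of Gad2 words found in the mitochondrial chromosome fell from 48.6% at 31 bases to 35.5% at 50 and 15.8% at 100. Beyond what each setting changes by construction, the cause was not tested. No paired analysis was possible because each group appears as 1 column, so replicates could neither be matched nor left out. Depth limits the last Col19a1 window most, with 2 reads at dorsal 24 h.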

Other observations

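Other listed nuclear windows with some mitochondrial sequence, singled out after their values were seen, were also lower at 24 h. There were 8 such windows named after 7 genes, with 7 entries in the ventral list against 26 h and 3 in the dorsal list against 22 h, and 10 of 10 entries were lower in RPKM at 24 h. Over all windows, 73.3% of that ventral list and 93.1% of that dorsal list were lower at 24 h, so the direction is a description. The exact 95% interval of the ratio lay wholly below 1 in 7 of the 10 entries. No share over all listed windows was computed for these intervals. A window nearest 1700019M22Rik on chromosome 12 (98299501 to 98300000, mm9), aligned over 72.6% at 99.7% identity, had 21.8 RPKM in the ventral 24 h column against 51.7 at 26 h, a 2.37-fold difference (1.77 to 3.23), and 7.42 at dorsal 24 h and 24.5 at 22 h (3.30-fold, 1.92 to 5.98). A window nearest Eea1, which encodes an early endosome tethering protein, on chromosome 10 (95540001 to 95540500) was aligned over 68.4% and had 11.1 against 21.2 RPKM in the ventral comparison and 0.87 (2 reads) against 9.44 in the dorsal one. The 2 windows aligned over at least 99.8% of their length, nearest Ccnh and Tyrp1, had ratios of 24 h to 26 h of 0.951 (0.712 to 1.26) and 0.704 (0.478 to 1.02). Their identity was 95.4% and 95%, below that of either larger copy, and nothing was tested on these windows.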
